A study of Mus musculus with 9 samples.

Results

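The transcription factors that specify the eye field and build the lens, Pax6, Six3, Six6, Rax, Lhx2, Vax2, Foxe3, Maf, Prox1 and Pitx3, were followed across whole eyes of 3 inbred mouse strains. They were taken by gene symbol from the deposited tables, and all 10 were found among the 13089 genes listed. All 10 reached 1 RPKM in at least 3 libraries and so passed the filter for testing. RPKM is a gene's reads divided by its transcript length and by the mapped reads of the library, so levels of genes of different length can be compared. It does not remove the trends with GC content described below, which limit comparisons between genes. Each strain, A/J, BALB/c and C57BL/6J, had 3 poly(A) RNA libraries, each made from pooled RNA of 5 wild-type female mice of 4 weeks, with no treatment in any group. A/J and BALB/c are albino inbred strains and C57BL/6J is a pigmented one. The labels do not tell if a strain's libraries were made from separate pools of mice, so every p-value measures the spread between libraries, which may be technical. Whole eyes hold many cell types, and fewer cells of a type cannot be told apart from less RNA per cell.

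In the embryo, the eye field forms where the anterior neural plate expresses Rax, Pax6, Six3, Six6 and Lhx2, which act in a shared network. Pax6 is also required in the surface ectoderm that becomes the lens, where Foxe3 and Pitx3 maintain the epithelium and Maf and Prox1 drive fibre cells to elongate and express crystallins. After development, several of these genes continue to be expressed in distinct cells of the retina, lens and iris, so a whole-eye level adds up several sources. Markers of the tissue were present: 10 of 10 rod markers and 10 of 11 lens markers were listed, with summed levels of 12418 to 15642 RPKM and 72305 to 118165 RPKM over the libraries.

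None of the 10 factors passed the test for a difference between any pair of strains. Pax6 stood first in all 9 libraries. Below it, the order of the strain means differed mainly in the place of Maf, which also varied between libraries of A/J and of C57BL/6J. Maf came nearest to a call, with a higher level in A/J than in C57BL/6J in every library. The widest spread was inside A/J: 2 of its libraries had far less Foxe3, Pitx3, Rax and Six3 RNA than the third. The gaps of Foxe3, Pitx3 and Rax became small once the values were corrected for the base composition of the transcripts, and that of Six3 did not.

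The start of the coding sequence of 3 of the lens factors is shown to make the contrast in base composition visible. The sequences are the first 120 coding bases on the coding strand, from GENCODE transcripts of the build GRCm38, with every G and C in capitals. G and C make up 72.5% of the stretch from Foxe3, 62.5% of that from Pitx3 and 50.8% of that from Prox1.
Foxe3: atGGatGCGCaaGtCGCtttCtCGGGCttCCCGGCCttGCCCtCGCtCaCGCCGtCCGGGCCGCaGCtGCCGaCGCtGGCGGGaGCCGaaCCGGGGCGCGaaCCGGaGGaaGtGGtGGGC
Pitx3: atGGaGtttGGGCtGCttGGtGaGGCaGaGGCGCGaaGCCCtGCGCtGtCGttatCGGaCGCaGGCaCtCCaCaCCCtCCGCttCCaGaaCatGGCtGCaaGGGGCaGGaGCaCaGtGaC
Prox1: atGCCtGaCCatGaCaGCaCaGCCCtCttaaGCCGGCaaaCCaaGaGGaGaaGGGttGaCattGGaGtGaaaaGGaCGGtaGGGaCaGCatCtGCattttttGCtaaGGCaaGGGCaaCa
Over the whole transcript, the GC content was 73.1% for Foxe3, 68.3% for Pitx3, 63.1% for Rax, 61.7% for Vax2, 58.5% for Lhx2, 53.4% for Six3, 50.3% for Pax6, 47.4% for Maf, 45.3% for Prox1 and 43.6% for Six6. Foxe3, Pitx3 and Rax lay at the 100th, 99.9th and 98.9th percentiles of GC content among the genes tested, and Six6 at the 14.9th. Maf is a split case: its coding sequence has 68.9% GC, and its 3′ untranslated region of 4316 bases has 38%. The Foxe3 gene model holds coding sequence alone (867 bases).

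The factors spanned more than a 10-fold range of RPKM. Pax6, a paired-domain and homeodomain factor, had a mean of 88.3 RPKM over the 9 libraries, which placed it at the 96th percentile of all listed genes. Rax, a homeodomain factor of retinal progenitors and photoreceptors, followed with 40 RPKM (88.4th percentile). Pitx3, a homeodomain factor of the lens epithelium, was lowest with 7.36 RPKM (42.6th percentile). In each strain the lowest Pax6 value exceeded the highest value of the next factor. In BALB/c and C57BL/6J, Rax was second and also did not overlap with the third, Six3. Below that, neighbours in the order overlapped, except Foxe3 (10.9 to 13.1 RPKM) and Pitx3 (6.72 to 9.92 RPKM) in BALB/c. Maf was in place 2 in A/J, place 5 in BALB/c and place 7 in C57BL/6J, and in each strain it overlapped with the factor next below it.

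**Figure D1:**
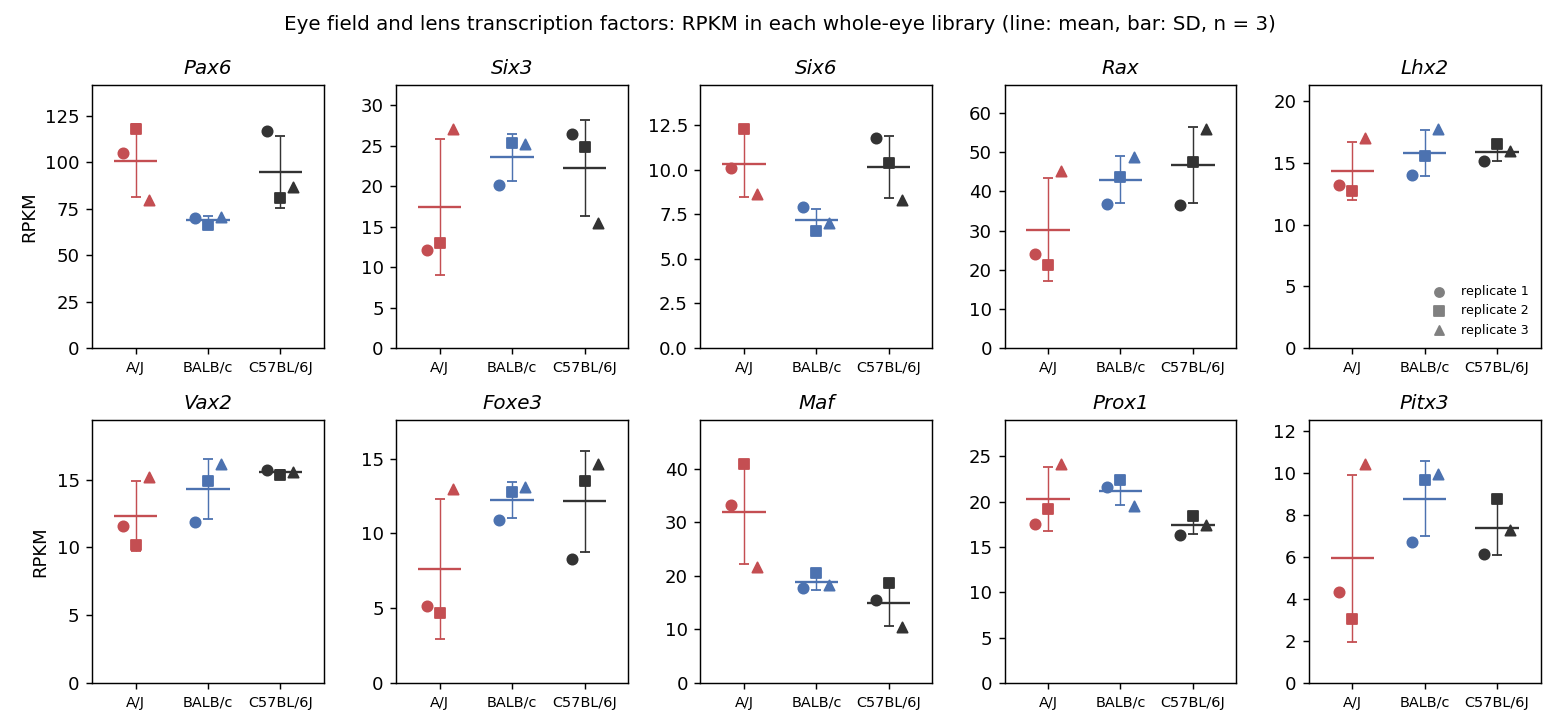
RPKM of each factor in each library, 1 panel a gene with its own axis from 0. Symbols mark the replicate number, horizontal lines the strain means and bars the SD (n = 3); A/J 1 and A/J 2 lie apart from A/J 3 in the panels of Six3, Rax, Foxe3 and Pitx3, and the BALB/c values of Pax6 lie below all values of the other strains.

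The eye field factors were led by Pax6. Its RPKM was 105, 118 and 79.6 in A/J, 70.1, 66.5 and 70.4 in BALB/c, and C57BL/6J had 117, 80.6 and 87. Every BALB/c library was therefore below every library of the other strains, and the BALB/c values were tightly grouped (69 ± 2.16 RPKM, SD, n = 3). On the log2(scaled RPKM + 0.5) scale used for testing, A/J exceeded BALB/c by 0.46 (SE 0.198, 95% interval 0.01 to 0.91, limma adjusted p = 0.233). BALB/c minus C57BL/6J was -0.26 (interval -0.71 to 0.19, limma adjusted p = 0.656). Neither difference passed.

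Six6, the SIX-family homeodomain factor of the neural retina and pituitary, had a similar order. It measured 10.1, 12.3 and 8.62 RPKM in A/J, 7.88, 6.59 and 7 in BALB/c, and C57BL/6J had 11.8, 10.4 and 8.32. The BALB/c libraries were again below all others in RPKM, but after scaling they overlapped with C57BL/6J. A/J minus BALB/c was 0.43 (SE 0.196, interval -0.02 to 0.87, limma adjusted p = 0.248). Across the 9 libraries the log2 values of Pax6 and Six6 had a Pearson r of 0.9, and of 0.59 after correction for GC content. That correlation describes 9 libraries that share their preparation and strain structure.

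Six3, the close relative of Six6 that acts in both the forebrain and the lens ectoderm, measured 12.2, 13 and 27.1 RPKM in A/J, 20.2, 25.3 and 25.2 in BALB/c, and C57BL/6J had 26.5, 24.8 and 15.4. A/J 1, A/J 2 and C57BL/6J 3 were low, and the remaining 6 libraries lay between 20.2 and 27.1. A/J minus BALB/c was -0.58 (SE 0.328, interval -1.32 to 0.16, limma adjusted p = 0.311), which did not pass.

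Rax measured 24.1, 21.2 and 45.3 RPKM in A/J, 36.7, 43.6 and 48.7 in BALB/c, and C57BL/6J had 36.6, 47.6 and 56. A/J 1 and A/J 2 were below all other libraries, while A/J 3 was within the range of both other strains. A/J minus BALB/c was -0.64 (SE 0.268, interval -1.25 to -0.04, limma adjusted p = 0.223) and A/J minus C57BL/6J was -0.57 (interval -1.18 to 0.03, limma adjusted p = 0.298). Of the 31-base stretches of the Rax transcript, 46.5% also lie in Raxos1 on the opposite strand. The use of strand in counting is not given in the sources used here, so the reads of these overlapping genes cannot be told apart.

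Lhx2, a LIM-homeodomain factor of the optic vesicle and Mueller glia, and Vax2, a homeodomain factor of the ventral retina, had the smallest values when each factor was taken at its largest difference between strains (Lhx2 -0.21 and Vax2 -0.29, both in A/J minus BALB/c). Lhx2 measured 13.3, 12.8 and 17 RPKM in A/J, 14, 15.6 and 17.8 in BALB/c, and C57BL/6J had 15.1, 16.5 and 16. Its A/J minus C57BL/6J difference was -0.05 with an interval of -0.39 to 0.29, and its limma adjusted p was 0.85. Vax2 measured 11.6, 10.2 and 15.2 RPKM in A/J, 11.9, 14.9 and 16.2 in BALB/c, and C57BL/6J had 15.7, 15.3 and 15.6. The A/J values of Vax2 were all below those of C57BL/6J in RPKM but overlapped after scaling. That difference was -0.24 (interval -0.63 to 0.15, limma adjusted p = 0.415). These intervals rest on the spread between libraries before correction for GC content. They hold no allowance for a library's trend with GC content, so they do not bound the strain difference. Nor do they show that the levels were equal.

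Among the lens factors, Maf, a basic leucine zipper activator of crystallin genes, differed most. It measured 33.2, 41 and 21.6 RPKM in A/J, 17.8, 20.6 and 18.2 in BALB/c, and C57BL/6J had 15.6, 18.8 and 10.4. The A/J mean was 31.9 ± 9.76 RPKM and the C57BL/6J mean 14.9 ± 4.2 RPKM (SD, n = 3 each), and the libraries of these strains did not overlap. The difference was 1.17 on the log2 scale (SE 0.295, interval 0.5 to 1.84), with an unadjusted p of 0.00327 and a limma adjusted p of 0.0885. It did not pass the threshold of 0.05. BALB/c lay between, 0.54 above C57BL/6J (limma adjusted p = 0.491) and 0.63 below A/J (limma adjusted p = 0.252). The size of the Maf difference depended on libraries of A/J and of C57BL/6J. Among omissions of 1 library, dropping C57BL/6J 3 made it smallest, at 0.88 (limma adjusted p = 0.169). Dropping A/J 1 gave 1.11, dropping A/J 2 gave 0.965, and dropping A/J 3 gave 1.44 (limma adjusted p = 0.0146). With A/J 3 as the only library of its strain, the difference was 0.64. Crystallin genes, many of them Maf targets, held 44.6%, 42.2% and 45.1% of the RPKM sum in A/J, 50.1%, 49.8% and 48.9% in BALB/c, and for C57BL/6J the shares were 37.1%, 43.9% and 29.6%. C57BL/6J 3 thus had the lowest Maf value and the lowest crystallin share, whereas BALB/c had the highest crystallin shares without the highest Maf. The part of lens content in the Maf values was not tested.

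Prox1, a homeodomain factor of fibre cells and of horizontal and other retinal cells, measured 17.5, 19.2 and 24.2 RPKM in A/J, 21.6, 22.4 and 19.5 in BALB/c, and C57BL/6J had 16.4, 18.5 and 17.4. The BALB/c libraries were all above those of C57BL/6J, and A/J overlapped with both. BALB/c minus C57BL/6J was 0.45 (SE 0.148, interval 0.11 to 0.78), with an unadjusted p of 0.014 and a limma adjusted p of 0.189. The 10 lens markers in the tables were all above 0, and their summed RPKM ran from 108825 to 118165 in BALB/c and from 72305 to 96670 in C57BL/6J. The 13 amacrine, horizontal and ganglion cell markers summed to 497 to 503 RPKM in BALB/c and 617 to 637 RPKM in C57BL/6J, which is the opposite direction. Both sums are of unscaled RPKM and are led by their highest genes. On the scaled log2 scale, BALB/c minus C57BL/6J had a median of 0.672 over the lens markers (0.138 to 1.06, 0 called). Over the 13 other markers it was -0.175 (-0.605 to 0.279), and 1, Nefl, was called lower (1.15% of all genes were). The part of either set of markers in the Prox1 values was not tested.

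Foxe3, the forkhead factor of the lens epithelium, measured 5.11, 4.66 and 13 RPKM in A/J, 10.9, 12.8 and 13.1 in BALB/c, and C57BL/6J had 8.28, 13.5 and 14.7. Pitx3 measured 4.31, 3.03 and 10.4 RPKM in A/J, 6.72, 9.65 and 9.92 in BALB/c, and C57BL/6J had 6.14, 8.75 and 7.27. For both genes A/J 1 and A/J 2 were the lowest of all 9 libraries. In RPKM, A/J 3 was the highest of all for Pitx3 and within the BALB/c range for Foxe3. After scaling, BALB/c 3 was slightly above A/J 3 for Pitx3 (10.45 against 10.33). For Foxe3, A/J minus BALB/c was -0.87 (SE 0.346, interval -1.65 to -0.08, limma adjusted p = 0.211). For Pitx3 the same difference was -0.75 (SE 0.37, interval -1.58 to 0.09, limma adjusted p = 0.27).

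Counted over the 10 factors, 0 were called by limma in A/J minus C57BL/6J, where 2.69% of the 12920 genes tested were called. In BALB/c minus C57BL/6J 0 were called against 3.09% of all genes, and in A/J minus BALB/c 0 against 2.48%. The F test for any difference among strains also called 0 factors, against 4.47% of all genes, and its smallest adjusted p was 0.123, for Maf. Limma without a trend or robust estimation called 0 in each comparison as well. At an unadjusted p under 0.05, the counts were 1 factor in A/J minus C57BL/6J (Maf; 17.5% of all genes), 1 in BALB/c minus C57BL/6J (Prox1; 13.8%) and 3 in A/J minus BALB/c (Pax6, Rax and Foxe3; 20.9%). Scaled values did not overlap for 1 factor (Maf; 16.4% of all genes), for 3 (Pax6, Maf and Prox1; 25.1%) and for 2 (Pax6 and Six6; 29.2%) in the same order of comparisons. With 10 factors, these counts are near the shares over all genes. The median difference of the 10 factors was -0.14, 0.19 and -0.25 in these comparisons, beside medians of -0.01, -0.01 and -0.01 over all genes. The 3 comparisons share their libraries pairwise and are not independent.

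**Figure D2:**
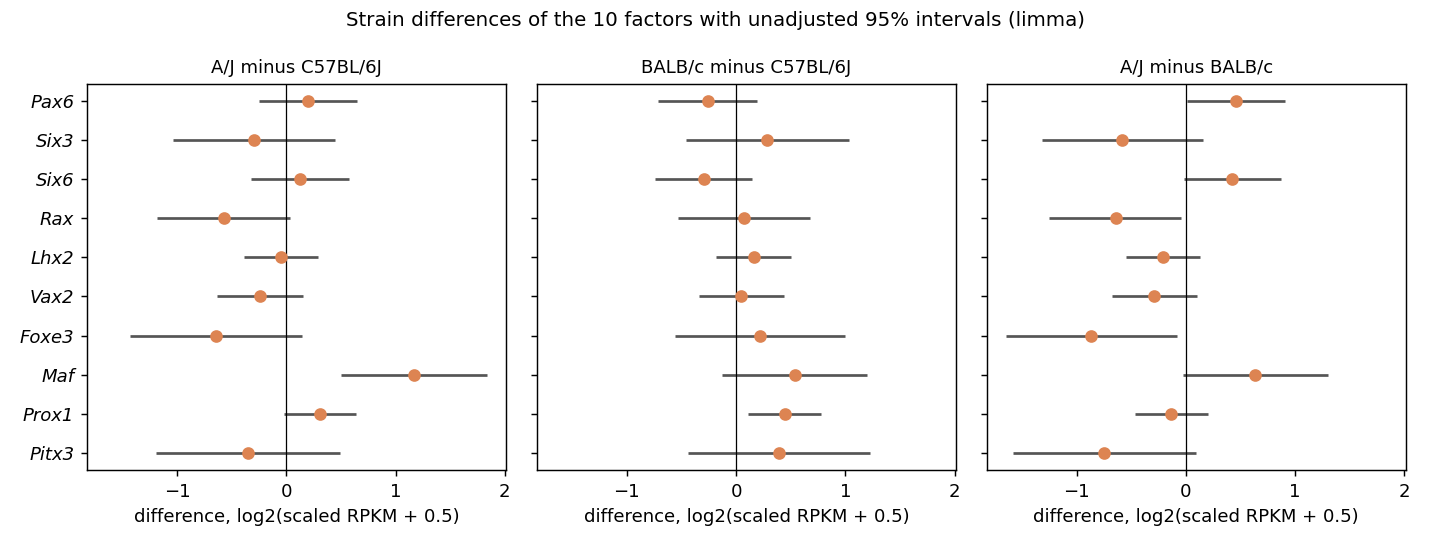
Differences between strains for each factor on the log2(scaled RPKM + 0.5) scale, 1 panel a comparison, with 95% intervals from limma that are not adjusted for the number of genes. Most intervals cover 0; Maf in A/J minus C57BL/6J has the largest difference, 1.17, and none passed after adjustment over all genes.

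For several factors the libraries of A/J differed more among themselves than the strain means did. On the log2 scale, the mean of A/J 1 and A/J 2 minus A/J 3 was -1.37 for Pitx3, -1.29 for Foxe3, -1.04 for Six3 and -0.94 for Rax, and it was 0.8 for Maf, 0.53 for Pax6 and 0.39 for Six6. In all, 7 factors were lower and 3 were higher in A/J 1 and A/J 2 by more than 0.3. The median over all genes tested was 0.02. The within-strain SD of Pitx3 in A/J, 0.824, was at the 98.5th percentile of all genes tested, and that of Foxe3, 0.746, at the 97.3rd. In BALB/c, where the median SD of all genes was 0.102 against 0.263 in A/J, the SD of Foxe3 was 0.146 and that of Pax6 was 0.032. That of Pitx3 was 0.302, at the 98th percentile within BALB/c. In C57BL/6J, Maf (0.52) and Six6 (0.327) had larger SDs than in A/J (0.483 and 0.26), whereas the other factors had larger SDs in A/J.

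All 5 factors with the most GC had negative gaps, of which those of Vax2 (-0.43) and Lhx2 (-0.33) were smaller in size than that of Six3. The Spearman correlation between GC content and the gap was -0.77 over the 10 factors and -0.72 over 12694 genes, as a description over genes measured in the same libraries. After each library's trend with GC content was removed, the gap fell to -0.13 for Pitx3, 0.23 for Foxe3 and -0.02 for Rax, but it remained -0.87 for Six3, 0.57 for Maf and 0.48 for Pax6. It was smaller in size after correction for 9 of the 10 factors, and for Prox1 it grew from -0.35 to -0.7. Among the 9 it changed sign for Foxe3, for Vax2 (to 0.4), for Lhx2 (to 0.25) and for Six6 (to -0.05). The within-A/J SD of Rax changed from 0.554 to 0.027 and that of Foxe3 from 0.746 to 0.141, while that of Prox1 rose from 0.209 to 0.406. In C57BL/6J the SD of Vax2 rose from 0.096 to 0.34 and that of Lhx2 from 0.127 to 0.28. It also rose for Six3 (0.513 to 0.613), Pax6 (0.309 to 0.324), Pitx3 (0.285 to 0.308), Prox1 (0.149 to 0.173) and Maf (0.52 to 0.528). Only those of Six6, Rax and Foxe3 fell. What gave the libraries their trends with GC content was not tested.

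**Figure D3:**
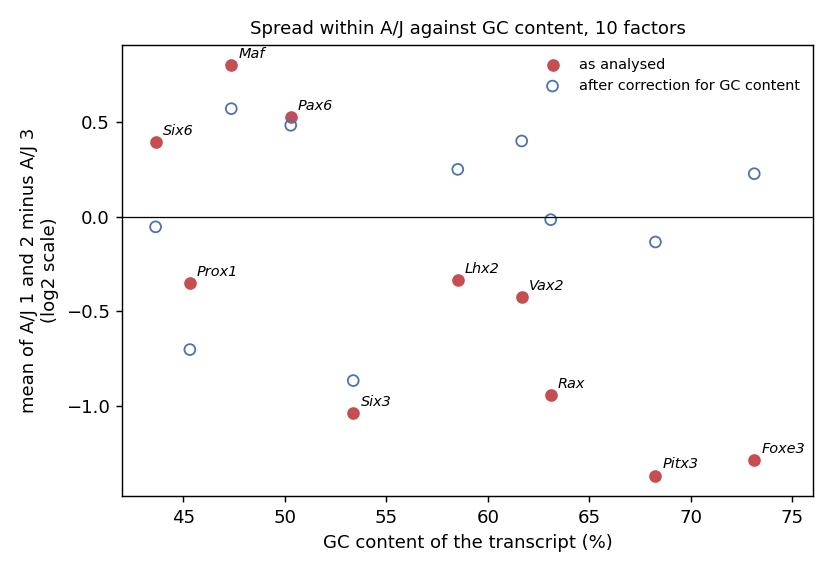
Mean of A/J 1 and A/J 2 minus A/J 3 (log2 scale) against the GC content of each factor's transcript in percent. Filled points are values as analysed and open points those after correction for GC content; Foxe3 and Pitx3, the richest in GC, move from -1.29 and -1.37 to 0.23 and -0.13, while Six3 stays low.

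The correction moved the strain differences of the GC-rich factors in unlike ways. For Foxe3, A/J minus BALB/c was -0.87 before and -0.05 after, and for Rax it was -0.64 before and -0.13 after. For Pitx3 it was -0.75 before and -0.08 after. For Lhx2 and Vax2 the same difference changed sign, from -0.21 to 0.15 and from -0.29 to 0.18. In A/J minus C57BL/6J, Lhx2 went from -0.05 to 0.27, Vax2 from -0.24 to 0.17 and Pitx3 from -0.35 to 0.16, and none of these was called. For Six6, which is poor in GC, A/J minus BALB/c shrank from 0.43. Its corrected deviations were -0.06, 0.09 and 0.07 in A/J and -0.11, -0.18 and -0.13 in BALB/c. Some differences of the remaining factors moved less. Maf in A/J minus C57BL/6J was 1.1 after correction (limma adjusted p = 0.0515), Pax6 in A/J minus BALB/c was 0.48, and Prox1 in BALB/c minus C57BL/6J was 0.49. No factor was called after the correction, when 3.99%, 4.64% and 3.06% of all genes were called in the 3 comparisons.

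**Figure D4:**
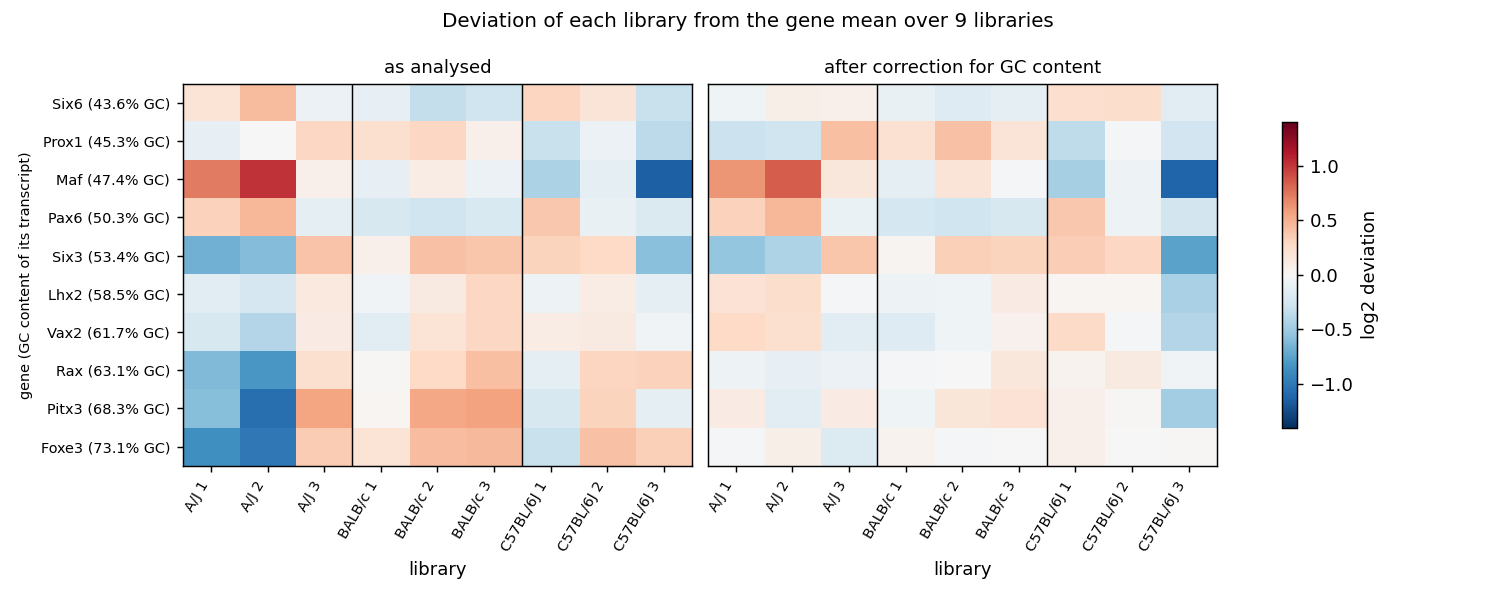
Deviation of each library (columns) from the gene's mean over 9 libraries, in log2 units as colour, for the factors ordered by GC content, before (left) and after (right) correction for GC content. On the left A/J 1 and A/J 2 are low for the GC-rich factors at the bottom; on the right that block fades, and the strongest deviations are those of Maf in C57BL/6J 3 and A/J 2.

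The correlations among the factors changed in the same way. Of 45 pairs of factors, 11 had a Pearson r above 0.8 over the 9 libraries, and 3 did after correction. Pairs with an r below -0.6 went from 10 to 2. Rax and Foxe3 had an r of 0.98, which became 0.15, and Pax6 and Foxe3 one of -0.93, which became 0.35. Lhx2 and Vax2 kept an r of 0.88, and Lhx2 and Maf went from -0.19 to 0.87. These values describe 9 libraries and carry no test.

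The genes whose pattern was most like that of a factor, by Pearson r of log2 values over the 9 libraries among all other genes tested, were found without correction for GC content. For Pax6 they were Tmem50b (0.988) and Ttc9c (0.987), for Six6 Epdr1 (0.995) and Dkk2 (0.984), and for Six3 Matn4 (0.949) and Prrt1 (0.942). Rax was most like Nova2 (0.992) and Lypla2 (0.991), Lhx2 most like Pcsk1n (0.945) and Txndc5 (0.935), and Vax2 most like Xrcc1 (0.961) and S1pr2 (0.956). For the lens factors they included Spty2d1 (0.978) for Maf, and were Bmp3 (0.956) and Fahd2a (0.949) for Prox1, Rap1gap (0.998) and Snx21 (0.995) for Foxe3, and Ppp1r15b (0.985) and Dpp3 (0.983) for Pitx3. A highest correlation picked among 12920 genes over 9 libraries is high by selection, and no p is given.

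Sequence shared with other genes limits a few of the values. Apart from Rax, the share of 31-base stretches found in any other gene was 7.88% for Maf, mostly in the opposite-strand transcript Gm15655, 4.79% for Six3 and 4.5% for Six6, and it was at most 2.56% for the others. Six6os1, which overlaps Six6 on the opposite strand, measured 4.6, 6.67 and 2.76 RPKM in A/J, 2.63, 1.8 and 1.74 in BALB/c, and C57BL/6J had 3.32, 3.1 and 1.39. No difference of it passed (A/J minus BALB/c 0.91, SE 0.364, limma adjusted p = 0.211). Elp4, next to Pax6, had means of 6.68 RPKM for A/J, 4.16 for BALB/c and 5.37 for C57BL/6J, and Gbf1, next to Pitx3, had 12, 14.4 and 15.4 RPKM in the same order of strains. Wwox, on the chromosome of Maf, had 7.97, 6.97 and 7.63 RPKM in the same order. Maf1, which shares part of its name with Maf but lies on another chromosome, had 61.5, 54.5 and 105 RPKM, with C57BL/6J 3 alone at 192. That library had the largest size factor, 1.16, and other genes also stood apart in it. Eya3 was high (25.4 RPKM, beside 6.57 and 5.88 in C57BL/6J 1 and 2) and Cryab low (1892 RPKM, beside 6358 and 5740). What set this library apart was not tested. None of the 5 transcripts of this list that were tested, of 15 listed, was called.

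Other genes of the same developmental programmes changed in few cases. Of 41 other factors of the eye field, optic vesicle and optic cup, 33 were tested. In A/J minus C57BL/6J 1 was called higher (1.08% of all genes were) and 0 lower (1.62%), and 0 were called in the other comparisons. The called gene was Bmp4, a secreted signal that the optic vesicle sends to the lens ectoderm. It measured 16.6, 16.7 and 19.4 RPKM in A/J, 14.6, 16.4 and 14.2 in BALB/c, and C57BL/6J had 12.8, 8.86 and 10.2, so that A/J was above C57BL/6J in every library. The difference was 0.82 (SE 0.155, limma adjusted p = 0.0247). It lost its call when any of 7 single libraries was left out, namely A/J 1 or 2, BALB/c 1, 2 or 3, or C57BL/6J 2 or 3 (limma adjusted p = 0.053 to 0.0996), and in a fit of A/J and C57BL/6J alone (0.141).

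Of 28 other lens factors and partners 25 were tested, of 39 retinal neuron factors 30, and of 18 anterior segment and corneal factors 16. None of these was called in any comparison. Sparc, a matrix protein of the lens capsule and other tissues, and Atf4, a stress-response factor needed for fibre differentiation, had the highest levels of the lens list, with 975 ± 81, 806 ± 20 and 908 ± 327 RPKM and 127 ± 12.3, 140 ± 5.13 and 126 ± 10.9 RPKM (A/J first, then BALB/c, then C57BL/6J). In the retinal list they were Neurod1, a basic helix-loop-helix factor of photoreceptors and amacrine cells (80.9 ± 9.17, 61 ± 4.34 and 76.3 ± 20.2 RPKM), and Id3, an inhibitor of such factors (53.7 ± 0.754, 75 ± 8.03 and 75.9 ± 2.37 RPKM). In the anterior list they were Elf3 and Klf4, epithelial factors of the cornea (38.5 ± 1.96, 50.6 ± 6.42 and 67.1 ± 28.5 RPKM, and 30.8 ± 8.8, 41 ± 7.28 and 31.8 ± 9.45 RPKM). All errors are SD over 3 libraries.

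Of 35 lens genes known as targets of these factors, 34 were tested. In A/J minus C57BL/6J 0 were called higher (1.08% of all genes) and 1 lower (1.62%), in BALB/c minus C57BL/6J 1 higher (1.93% of all genes) and 0 lower (1.15%), and in A/J minus BALB/c 0 higher (0.573%) and 2 lower (1.9%). The lower genes were Gluld1, a lens relative of glutamine synthetase, which was lower in A/J than in each other strain, and Crygf. Gluld1 measured 410, 420 and 350 RPKM in A/J, 1746, 1487 and 1639 in BALB/c, and C57BL/6J had 1947, 1634 and 1308, and its differences were -1.92 and -2.11 (SE 0.193 each, limma adjusted p = 0.000751 and 0.000843). Those calls held in every alternative that was run. Cryga, a gamma crystallin, measured 20280, 17971 and 17516 RPKM in BALB/c, and C57BL/6J had 2293, 6315 and 1072 (difference 3.07, SE 0.549, limma adjusted p = 0.0174). It lost its call when BALB/c 1, 2 or 3 or C57BL/6J 1 was left out (limma adjusted p = 0.0622 to 0.0845), and in a fit of BALB/c and C57BL/6J alone (0.0519). Crygf measured 1528, 1356 and 1731 RPKM in A/J and 6992, 7433 and 6911 in BALB/c (difference -2.28, SE 0.465, limma adjusted p = 0.0397). It lost its call without A/J 1 or 2, BALB/c 1, 2 or 3, or C57BL/6J 1 (limma adjusted p = 0.0616 to 0.166), with quantile normalization (0.0689) and with correction for GC content (0.0697). The gamma crystallin genes are near-identical in places, so the split of reads among them is uncertain. The median difference of the 34 lens targets was 0.24, 0.49 and -0.31 in the 3 comparisons.

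Leaving out A/J 3 changed the number of factors called. Without it, 4 factors (Rax, Foxe3, Maf and Pitx3) were called in A/J minus C57BL/6J and 6 (Pax6, Six3, Rax, Foxe3, Maf and Pitx3) in A/J minus BALB/c. The same omission raised the calls over all genes to 28.3% and 34.7%, so that the factors' counts stand beside a much larger background. In BALB/c minus C57BL/6J it left 0 factors called, beside 4.95% of all genes. Without both A/J 3 and C57BL/6J 3, 6 factors were called in A/J minus C57BL/6J (39.7% of all genes), 2 in BALB/c minus C57BL/6J (14.9%) and 9 in A/J minus BALB/c (59.9%). Without A/J 1 and A/J 2, 0 factors were called, beside 0.983%, 3.06% and 0.573% of all genes in the same order. Which of the A/J libraries represents the strain cannot be told from these files.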

How the data were processed

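Poly(A) RNA of whole eyes was sequenced, 3 libraries a strain. The authors deposited a table per library with a symbol and a value. The deposited values were taken as RPKM: the headers name no unit, and values times transcript length gave 96.6% to 99.4% of the total that RPKM implies in 8 libraries and 114.3% in C57BL/6J 3. CASAVA 1.7, GenomeStudio and the build mm9 are named in the submitters' processing notes; gene models and the counting rule were not found in the labels or headers. Depth is unknown, so no counting interval is given.

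Libraries were scaled with median-of-ratios size factors, 0.5 was added and log2 taken, which understates changes of low genes. Genes with at least 1 RPKM in at least 3 libraries (12920) entered limma 3.58.1 under R 4.3.3 (trend, robust, all 9 libraries in 1 fit, strain as the only term), two-sided, with Benjamini-Hochberg adjustment over all of them; a call is an adjusted p under 0.05. The code was tested on simulated data. GC content, from GENCODE transcripts of the newer build GRCm38, was found for 98.2% of genes and corrected with a loess per library (span 0.3). No coordinates are given. No 2 libraries held identical values.

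The factors and gene lists were chosen with earlier results of these data known. From each list, up to 4 called genes by smallest F-test p are named, or, with none called, the 2 highest in level, and for each factor the 2 genes most like it. Some genes that the rule named are left out here. Alternatives covered scaling, pseudocount, filter, GC correction, a replicate block, the 2 strains alone, the variance model and libraries left out.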

Additional observations from a re-analysis of the deposited data

How the results depend on the processing

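Of 690 alternative values for the 10 factors (30 differences under 23 alternatives), 661 kept their side of the threshold, 29 became called, and no called value had the opposite sign; 46 values that were not called changed sign. A factor was called under 4 of the alternatives, which are given here. With the replicate block, 1 factor was called in A/J minus C57BL/6J (Maf, limma adjusted p = 0.0167, beside 3.14% of all genes) and 1 by the F test; with the block and correction for GC content together, 1 was called in each (Maf, 0.0104, beside 3.87%). Correlations of deviations between same-numbered libraries ran from -0.515 to 0.537, and 8 of 18 best matches had the same number. These deviations also carry each library's trend with GC content. They therefore cannot tell if the replicate numbers mark a shared batch. Leaving out 1 library gave 0 to 4 factors called in A/J minus C57BL/6J, 0 to 0 in BALB/c minus C57BL/6J, 0 to 6 in A/J minus BALB/c and 0 to 5 by the F test, the highest each time without A/J 3. Without both A/J 3 and C57BL/6J 3, the counts were 6, 2, 9 and 9, when 39.7%, 14.9% and 59.9% of all genes were called in the 3 comparisons; the cause was not tested. Maf in A/J minus C57BL/6J ranged from 0.88 to 1.44 with 1 library left out (limma adjusted p = 0.0146 to 0.318), and was 1.17 in a fit of these 2 strains alone (0.303). With the values as deposited, the median of all genes shifted to -0.11, -0.17 and 0.05 in the 3 comparisons. Under some scalings Rax, Lhx2 and Vax2 in BALB/c minus C57BL/6J changed sign. Fits of 2 strains alone called 141, 397 and 430 genes in the 3 comparisons against 348, 399 and 320, the filter at 5 RPKM 172, 222 and 201 of fewer genes tested, and the correction for GC content 507, 589 and 389. Depth is unknown and limits no statement here by a count.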

Other observations

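Relatives of the factors, chosen by family name after values had been seen, were also looked up. Of 13 relatives in the tables, all of them tested, 0 were called by limma in any comparison, and 4 had a mean of at least 5 RPKM in every strain. Mafg, a small Maf protein, had a mean of 7.87 ± 5.94 RPKM for A/J, 10.6 ± 0.588 for BALB/c and 13 ± 5.27 for C57BL/6J (SD, n = 3). The A/J mean of Mafg joined unlike libraries: A/J 1 and A/J 2 had 4.04 and 4.87 RPKM, and A/J 3 had 14.71. The C57BL/6J libraries ran from 8.23 to 18.65 RPKM. The A/J minus C57BL/6J difference of Mafg was -0.73 (SE 0.417, limma adjusted p = 0.342). Maf itself had its highest mean in A/J.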
